A study of Mus musculus with 12 samples.

Results

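The miRNAs numbered 1000 and above were described in colonies of AKR-2B cells, a mouse fibroblast line, that grew in soft agar, where cells divide without a surface to attach to. Members were the rows of the mature miRNA count table named miR-N with N of at least 1000 and with at least 10 reads summed over the 6 miRNA libraries. There were 103 of them among 1281 listed miRNAs, of which 664 had a read in any library. Of 453 listed miRNAs numbered 1000 and above, 186 had a read, and 83 of these summed to under 10 reads. The sum of reads chose the members, so their abundance is given as a description. The 6 groups were vehicle and 25 ng/mL TGFβ at days 2, 4 and 8, all of the same line with no genetic change named, and each group was 1 miRNA library. Days are not replicates of one another, no difference within a day has a replicate check, and the spread between cultures is not known.

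miRNAs are numbered in the order in which they were registered, so high numbers belong to small RNAs found late, mostly by sequencing. The usual precursor is cut from a longer transcript by Drosha with its partner DGCR8 and then by Dicer, and the short strand that remains pairs with mRNAs through its seed, bases 2 to 8. A mirtron is a precursor that is itself a whole short intron, so splicing takes the place of the Drosha cut and the ends carry the splice-site letters, GU at the 5′ end and AG at the 3′ end. Other late entries overlap small nucleolar RNAs, which guide chemical changes on ribosomal RNA, their Cajal body relatives (scaRNAs), which guide the same changes on spliceosomal RNA, or repeated elements.

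RefSeq gave a mature sequence on GRCm38.p6 for 76 of the 103 members. The sequences that follow are written 5′ to 3′. The first set comes from the members with an end of the precursor or of the mature sequence within 3 bases of an intron end. Those shown were picked for a GU at the 5′ end or an AG at the 3′ end, marked by capitals. Others at an intron end, such as miR-3102-3p and miR-5121, carry neither. miR-1224-5p lies at chr16:20604452-20604472 on the plus strand in Vwa5b2, miR-1981-5p at chr1:184822465-184822488 on the minus strand in Marc2, and miR-3102-5p at chr7:100882388-100882409 on the minus strand in Arhgef17. miR-1231-3p lies in Nav1, miR-3076-3p in Tkt, which encodes transketolase, miR-3572-3p in Cnot3 and miR-1966-3p in Ripor1.
miR-1224-5p: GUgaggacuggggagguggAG
miR-1981-5p: GUaaaggcugggcuuagacguggc
miR-3102-5p: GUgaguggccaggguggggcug
miR-1231-3p: ugcccugucuguucugcccacAG
miR-3076-3p: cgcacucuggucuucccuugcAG
miR-3572-3p: uacacuuguccuucuuuccccAG
miR-1966-3p: uuucugacucaacucucccuuAG

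Of the 76 members with a sequence, 14 (18.4%) lay at an intron end, against 5 of 268 (1.87%) among the other miRNAs with at least 10 reads. The precursors of miR-1224-5p, of both arms of miR-1981 and of the 4 miR-3102 members spanned an intron from end to end, 3 of 64 precursors of members against 1 of 197 of the others. A mature sequence ended in AG in 8 members (10.5%) and in 16 of the others (5.97%), and started with GU in 4 members (5.26%) and in 7 of the others (2.61%). These are shares of the listed sequences and carry no test.

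The second set overlaps structured small RNAs, and capitals mark the seed. Each of the 4 is an exact match to an annotated one: miR-5121 to Snord33, at chr7:45126925-45126945 on the minus strand inside Rpl13a, a ribosomal protein gene; miR-1843b-3p to Scarna3a, at chr1:159340400-159340419 on the plus strand; miR-1843a-5p to Scarna3b, at chr12:80391654-80391674 on the minus strand; and miR-3068-3p to a snoRNA annotated at its own locus, at chr12:87437685-87437706 on the minus strand.
miR-5121: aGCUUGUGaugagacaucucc
miR-1843b-3p: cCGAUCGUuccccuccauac
miR-1843a-5p: uAUGGAGGucucugucugacu
miR-3068-3p: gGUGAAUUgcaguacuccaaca
Within 2 mismatches, 12 of the 76 members with a sequence (15.8%) and 6 of the 268 other miRNAs (2.24%) matched an annotated structured small RNA. Reads of such members cannot be assigned to a miRNA or to the host small RNA from these counts. The 12 are not independent, since both arms of miR-1843a, of miR-1843b and of miR-3068 are among them. For miR-1839-5p and the miR-3068 arms, the match is an entry named for the miRNA itself. The 27 members without a sequence were not screened, and miR-6243 among them alone held 57.8% of the members' reads. Of transfer RNAs, only mitochondrial ones were among the kinds searched. Ribosomal RNA was searched only as far as the annotated transcripts hold it. A member without a match is therefore not shown to be free of such overlap.

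The third set shows members found in many genes, with capitals marking the run of bases that the first shares with the second. The run is 16 bases long.
miR-3473a: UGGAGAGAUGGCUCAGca
miR-3473b: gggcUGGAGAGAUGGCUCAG
The sequence of miR-3473b occurred exactly in annotated transcripts of 343 genes and that of miR-3473a in those of 146 genes. miR-3470b, shown with the miRNAs that fell with day, occurred in transcripts of 546 genes and miR-3471 in those of 34 genes. At least 20 genes were matched by 4 members (5.26%) and by 1 of the others (0.373%). Counts of these members are therefore uncertain as counts of single miRNAs.

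The 12 libraries of the study comprise 6 of miRNA and 6 of mRNA. The miRNA libraries held 108716 to 1387785 reads, and depth rose with day and, at each day, with TGFβ, so effects of depth cannot be told apart from those of day and treatment. A single read was worth 9.20 CPM (counts scaled to the mature miRNA reads of the library) in the shallowest library, day 2 vehicle, and 0.721 CPM in the deepest, day 8 TGFβ. The fibroblast and mesenchyme miRNAs, 7 of 7 with a read, summed to 120980 to 263454 CPM, the highest of the marker lists. Epithelial miRNAs, 7 of 7 with a read, summed to 933.6 CPM in the day 2 TGFβ library, to 239.2 CPM in its vehicle partner and to 13.05 to 60.32 CPM later. Leukocyte miRNAs summed to between 0 and 2.16 CPM. The part of other cells in the results was not tested, and in bulk RNA fewer cells of a type and less RNA per cell cannot be told apart.

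Members took 14.2% of the reads of the day 2 vehicle library (95% Wilson interval 13.9 to 14.4), 8.13% at day 4 (8.02 to 8.24) and 6.53% at day 8 (6.46 to 6.61). With TGFβ they took 11.8% at day 2 (11.6 to 11.9), 12.0% at day 4 (11.9 to 12.1) and 6.51% at day 8 (6.47 to 6.55). The intervals cover counting error only, and so do all intervals that follow. The share fell at each step in vehicle colonies, while under TGFβ it stayed near its day 2 level until day 4 and fell by day 8. Without miR-6243, the most abundant member, the others held 8.63%, 4.67% and 3.11% of the vehicle reads at days 2, 4 and 8. They held 6.95%, 4.29% and 2.22% of the TGFβ reads. This was a fall at each step in both, with the TGFβ library lower at each day.

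**Figure D1:**
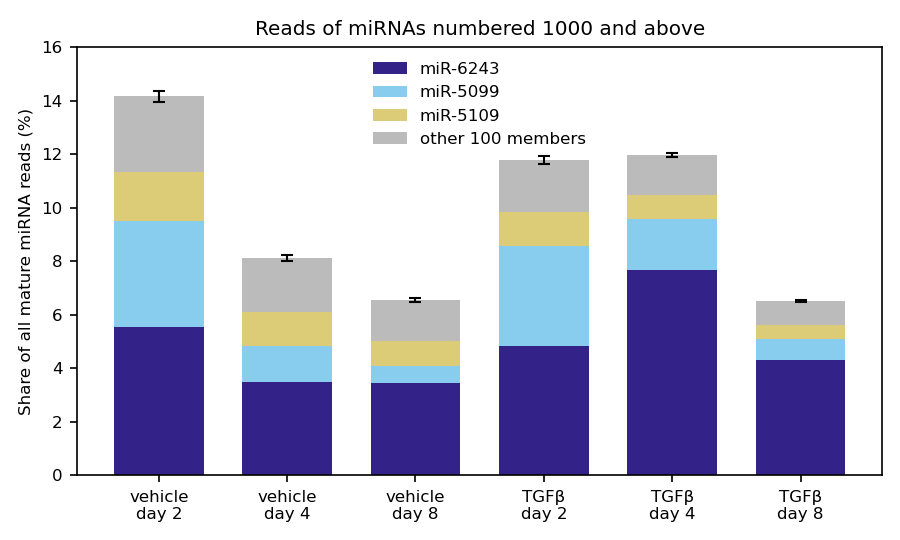
Share of all mature miRNA reads held by the 103 members, as stacked bars for each of the 6 libraries, in percent, with miR-6243, miR-5099, miR-5109 and the remaining members apart; black bars are 95% Wilson intervals of the whole share. The share drops from 14.2% to 6.53% in vehicle libraries, and the day 4 TGFβ bar is raised by miR-6243.

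The abundance was uneven. Of the 103 members, the sum of reads had at least 5 digits for 3, 4 digits for 8, 3 digits for 34 and 2 digits for 58. miR-6243, miR-5099 and miR-5109 together held 75.0% to 87.6% of the members' reads in each library. A read was present in all 6 libraries for 74 members. At the lower limit of the rule, miR-1186b, miR-3064-5p and miR-3103-3p summed to 10 reads, and miR-1941-5p, miR-3110-5p and miR-5123 lay just outside with 9.

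miR-6243 was the most abundant member, at 55199, 34644 and 34236 CPM in the vehicle libraries of days 2, 4 and 8 and at 48285, 76667 and 42930 CPM with TGFβ. The day 4 TGFβ library stood above the other 5, and the groups overlapped. Its scaled ratio of TGFβ to vehicle was 1.07 (95% counting interval 1.04 to 1.11) at day 2, 2.76 (2.69 to 2.82) at day 4 and 1.53 (1.5 to 1.56) at day 8. The day 2 direction turned with the scaling, from a log2 of 0.10 to -0.19 with total reads, as the CPM show. Averaged over days its log2 change was 0.72 ± 0.30 (SE), which did not pass the test (edgeR quasi-likelihood test, adjusted p = 0.122).

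miR-5099 fell with day in both treatments. It had 39939, 13498 and 6589 CPM in vehicle libraries and 37389, 18954 and 7752 CPM in TGFβ libraries at days 2, 4 and 8, with no overlap between days. From day 2 to day 8 it was 6.39-fold lower in vehicle and 5.10-fold lower in TGFβ libraries. Averaged over treatment the log2 change was -2.52 ± 0.36 (SE; edgeR adjusted p = 0.00122). With TGFβ against vehicle its log2 change was 0.20, 0.81 and 0.52 at days 2, 4 and 8. Averaged over days this was 0.51 ± 0.28 (SE), which did not pass the test (edgeR adjusted p = 0.238). miR-5109 had 18231, 12860 and 9413 CPM in vehicle libraries and 12606, 9161 and 5249 CPM with TGFβ. It was lower in the TGFβ library at each day, and its log2 change from day 2 to day 8 was -1.18 ± 0.35 (SE; edgeR adjusted p = 0.0343).

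The question of which members changed over the 8 days of colony growth was addressed with the fit across all miRNAs, in which 52 members were among the 283 tested. Of these 52, 12 were lower at day 8 than at day 2 and 0 were higher, while 9.89% of all miRNAs tested were lower and 5.3% higher (edgeR quasi-likelihood test, Benjamini-Hochberg adjusted p under 0.05). The median log2 change was -1.03 over the 52 members and 0.03 over all 283. At an unadjusted p under 0.05, 23 of the 52 members passed, with 31.4% of all miRNAs tested. The number rested on the filter and on the days. When edgeR's expression filter was given the full design, 6 members were called, of which 4 were among the 12, and without day 4 there were 4, all among the 12. DESeq2 called 15, the 12 among them. Over all miRNAs the calls numbered 21 of 309 with that filter, 13 of 283 without day 4 and 52 of 664 with DESeq2.

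At day 4 no member differed from day 2 after adjustment in edgeR, and 0% of all miRNAs tested did. At an unadjusted p under 0.05, 5 of 52 members passed, with 9.54% of all miRNAs, and DESeq2 called 0 members. The median log2 change of the members was -0.57, against -0.02 over all miRNAs.

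Besides miR-5099 and miR-5109, the 12 were miR-1249-3p, miR-1964-3p, miR-3470a, miR-3470b, miR-3473b, miR-5119, miR-5128, miR-6238, miR-6239 and miR-6538. The sequences of those whose course was steepest, with the seed in capitals, and of miR-3470b are these.
miR-6238: uUAUUAGUcaguggaggaaaug
miR-6538: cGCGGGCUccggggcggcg
miR-5119: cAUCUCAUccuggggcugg
miR-3470b: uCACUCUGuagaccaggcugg
No seed is shared among the 4. miR-6238 lies at chr7:53891796-53891817 on the minus strand outside annotated genes, miR-6538 at chr12:26414970-26414988 on the minus strand in an intron of Rnf144a, which encodes a ubiquitin ligase, and miR-5119 at chr11:98262638-98262656 on the plus strand in an intron of Cdk12, a kinase of the transcription machinery.

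miR-6238 fell from 506 CPM at day 2 to 138 at day 4 and 86.8 at day 8 in vehicle libraries, and from 464 to 47.9 and 7.21 CPM with TGFβ. Its change from day 2 to day 8 was 6.15-fold in vehicle and 68.1-fold in TGFβ libraries, where 83 reads became 10 in a much deeper library. Both day 2 libraries lay above the other 4 (log2 change -4.19 ± 0.77, SE; edgeR adjusted p = 0.00245). miR-6538 had 258, 73.2 and 55.4 CPM in vehicle and 134, 17.4 and 2.88 CPM in TGFβ libraries, the last value from 4 reads (log2 change -3.60 ± 0.76, SE; edgeR adjusted p = 0.00701). miR-5119 rested on few reads, 10, 10 and 1 in vehicle and 6, 3 and 0 in TGFβ libraries at days 2, 4 and 8. Its ratio of day 8 to day 2 in vehicle was 0.0249 (0.000573 to 0.175), and in TGFβ it was at least 16.4-fold lower, with 3 reads in place of 0 (edgeR adjusted p = 0.00402).

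Of the 4 members matching at least 20 genes, miR-3470b and miR-3473b passed the test, miR-3473a did not (edgeR adjusted p = 0.0838) and miR-3471 had too few reads to be tested. miR-3470b had 359, 608 and 190 CPM in vehicle and 425, 172 and 63.4 CPM in TGFβ libraries, and miR-3473b had 175, 103 and 62.7 CPM against 257, 87.0 and 34.6 CPM. The vehicle level of miR-3470b was highest at day 4, unlike that of miR-3473b. Adjusted p for the fall was 0.0343 for miR-3470b and 0.0237 for miR-3473b in edgeR, with log2 changes of -2.03 ± 0.59 and -2.31 ± 0.59 (SE). miR-3470a, of the same name family, had 294, 323 and 101 CPM in vehicle and 274, 82.7 and 41.8 CPM with TGFβ.

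miR-1964-3p, in an intron of Zfp84, a zinc finger gene, had 635, 461 and 246 CPM in vehicle and 867, 455 and 220 CPM with TGFβ, 2.72-fold lower in vehicle and 4.17-fold lower in TGFβ libraries at day 8 than at day 2 (log2 change -1.76 ± 0.47, SE; edgeR adjusted p = 0.0275). miR-5128, in an intron of Strbp, had 101, 43.1 and 28.9 CPM in vehicle and 129, 37.0 and 10.8 CPM with TGFβ (adjusted p = 0.0199). miR-6239, on the strand opposite Gpc6, a cell-surface proteoglycan gene, had 1049, 427 and 475 CPM in vehicle and 565, 383 and 125 CPM with TGFβ (adjusted p = 0.0436).

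**Figure D2:**
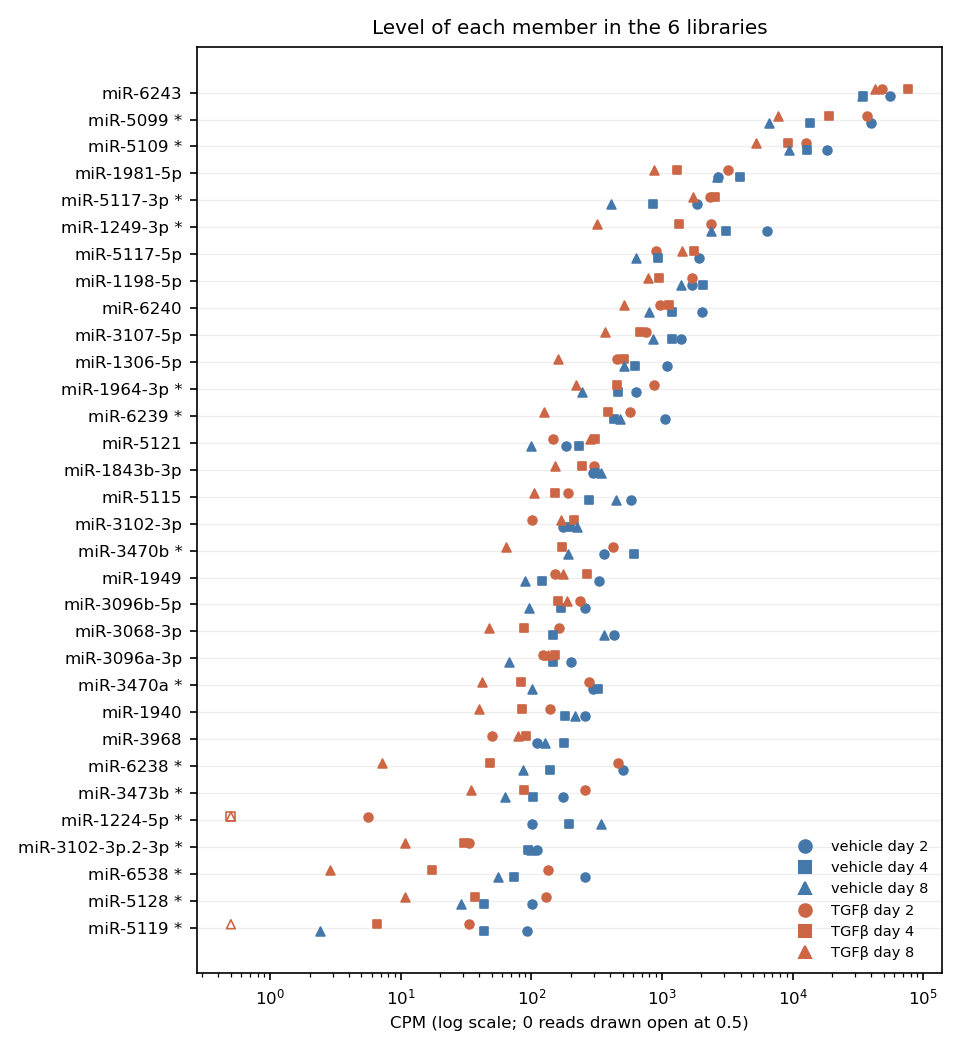
CPM on a log scale in each of the 6 libraries for the members with a mean of at least 100 CPM or with a call in an edgeR test (marked *); blue is vehicle, red is TGFβ, and circle, square and triangle are days 2, 4 and 8, with a count of 0 drawn open at 0.5. For miR-5099, miR-6238 and miR-6538 the circles lie right of the triangles in both colours, while miR-1224-5p has all blue points right of all red ones.

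Set apart by treatment, with at least 10 CPM on average in the 2 libraries compared, 35 of 78 members were at least 2-fold lower at day 8 than at day 2 in vehicle and 6 were at least 2-fold higher, beside 21.7% and 17.7% of all miRNAs. With TGFβ, 41 of 71 were at least 2-fold lower and 2 higher, beside 28.8% and 23.9%. These counts lean on the filter, because few reads pass it in the shallow day 2 libraries. miR-1966-3p passed with 2 reads in each vehicle library, while miR-3081-3p, with 0 and then 15 reads under TGFβ, was left out. With no filter the members' median log2 change was -0.613 in vehicle and -0.842 with TGFβ, against -0.859 and -1.26 with it. Over all miRNAs it was 0.101 and 0.318 with no filter. Over the 69 members compared in both treatments, 24 (34.8%) were at least 2-fold lower in both, as were 17 of 273 other miRNAs (6.23%). A value below 0 on the log2 scale in both treatments was found for 48 members (69.6%) and 67 others (24.5%). A value above 0 in both was found for 5 members (7.25%) and 110 others (40.3%). The 2 courses share no library, and the counts carry no test. CPM fell at each step in both treatments for 24 of the 103 members (23.3%) and rose at each step in both for 5 (4.85%), against 30 (8.62%) and 57 (16.4%) of the 348 other miRNAs with at least 10 reads.

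**Figure D3:**
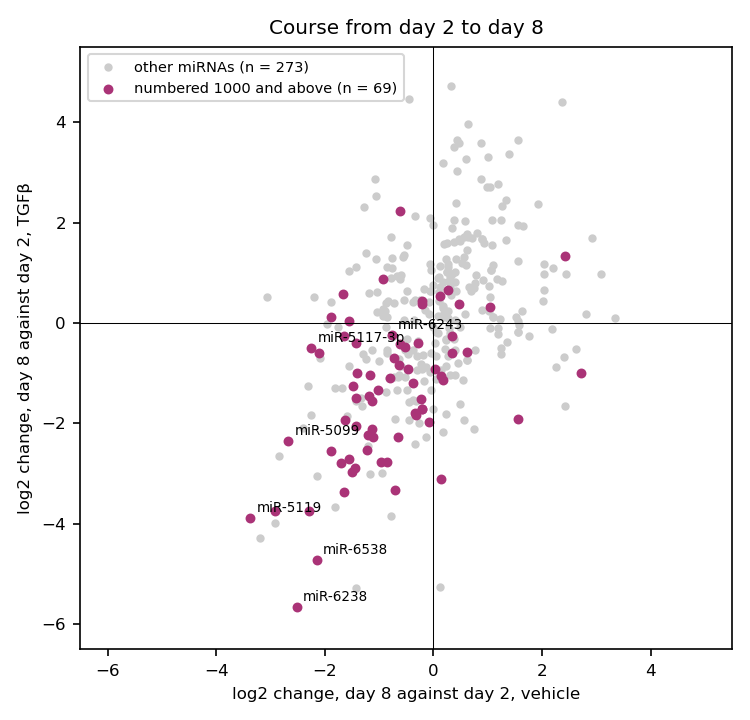
log2 change from day 2 to day 8 in vehicle (x) and in TGFβ (y) libraries, 1 point per miRNA, for 69 members (purple) and 273 other miRNAs (grey). Most purple points, 48, are negative on both axes, with miR-6238, miR-6538, miR-5119 and miR-5099 farthest down or left among those named.

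In some members the treatments took different courses, which was not tested. miR-5121 had 184, 233 and 98.8 CPM in vehicle but 145, 309 and 283 CPM in TGFβ libraries, and miR-1949 had 331, 121 and 89.2 CPM in vehicle and 151, 265 and 174 CPM with TGFβ. In both, the vehicle level was lower at day 8 than at day 2 while the TGFβ level was not. miR-1843a-5p went from 2 to 90 reads under TGFβ between days 2 and 8, a scaled ratio of 5.49 (1.48 to 46.0), and went from 8 to 20 reads in vehicle, a ratio of 0.621 (0.262 to 1.63).

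The effect of TGFβ common to the 3 days was then tested in the same fit. Of the 52 members, 4 passed, miR-1224-5p, miR-1249-3p and miR-3102-3p.2-3p lower and miR-5117-3p higher, beside 7.42% of all miRNAs tested, 2.83% lower and 4.59% higher (edgeR quasi-likelihood test, Benjamini-Hochberg adjusted p under 0.05). The members' share, 7.69%, was near that background. At an unadjusted p under 0.05, 14 members and 29.7% of all miRNAs passed. The median log2 change was -0.24 over the members and -0.05 over all miRNAs. Of the 4, miR-1224-5p alone was also called with edgeR's filter given the full design, without day 4, without day 8, and with scaling on the miRNAs numbered below 1000. DESeq2 called miR-1224-5p, miR-1249-3p and miR-5117-3p, and its adjusted p for miR-3102-3p.2-3p was NA.

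miR-1224-5p, the mirtron of Vwa5b2, had 11, 45 and 142 reads in the vehicle libraries of days 2, 4 and 8 and 1, 0 and 0 reads in the TGFβ libraries. In CPM these were 101, 194 and 342 against 5.59, 0 and 0, so vehicle and TGFβ did not overlap at any day. The ratio at day 2 was 0.0677 (0.00157 to 0.466). The TGFβ level was at least 23.9-fold lower at day 4 and at least 130-fold lower at day 8, with 3 reads per library in place of 0. The edgeR adjusted p was 0.000248, with TGFβ lower at 3 of 3 days. In vehicle libraries the level at day 8 was 3.21 (1.74 to 6.57) times that at day 2, against the course of most members.

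Its host gene gave a second readout. In the authors' deposited table of mRNA ratios at day 8, Vwa5b2 is listed at 0.0649, the ratio 19 to 293 in lowest terms. The headers of the authors' deposited table name no direction, and the ratios were read as TGFβ over vehicle because Pmepa1, a direct TGFβ target, is then above 1 at days 2, 4 and 8 (5.41, 22.2 and 14.2). Read so, the authors' deposited table puts the Vwa5b2 mRNA 15.4-fold lower, the direction of the miRNA at the same day; read the other way it would be higher. The ratio has no per-sample values, and Vwa5b2 is not listed in the authors' deposited tables of days 2 and 4.

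miR-5117-3p was the single member at least 1.5-fold higher at all 3 days. It had 203, 197 and 169 reads in vehicle and 415, 1176 and 2398 reads in TGFβ libraries. In CPM this was 1867, 849 and 407 against 2320, 2558 and 1728, so the vehicle level was lower at each later day while 2 of the 3 TGFβ values lay above the whole vehicle range. In CPM the day 2 vehicle library lay above the day 8 TGFβ library. CPM leave out the scaling factors used for the ratios, 1.075 for day 2 vehicle and 0.927 for day 8 TGFβ. With these factors the order of the libraries turns. The scaled ratios were 1.52 (1.28 to 1.81), 3.75 (3.22 to 4.39) and 5.18 (4.43 to 6.09) at days 2, 4 and 8, and the averaged log2 change was 1.64 ± 0.40 (SE; edgeR adjusted p = 0.0287).

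The other arm, miR-5117-5p, had 1922, 931 and 631 CPM in vehicle and 906, 1744 and 1427 CPM in TGFβ libraries. Its ratio was 0.577 (0.467 to 0.712) at day 2 and 2.33 (2.01 to 2.72) and 2.76 (2.43 to 3.15) at days 4 and 8, and it did not pass the averaged test (log2 change 0.67 ± 0.45, SE; edgeR adjusted p = 0.347).

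miR-1249-3p lies at chr15:84951545-84951566 on the minus strand, in an exon of a retained-intron transcript of 5031439G07Rik. It was lower with TGFβ at each day. It had 6365, 3098 and 2369 CPM in vehicle and 2365, 1359 and 319 CPM in TGFβ libraries. In CPM no TGFβ value reached the vehicle range, although the day 2 TGFβ and day 8 vehicle values were nearly equal. With the scaling factors used for the ratios, 0.878 for day 2 TGFβ and 1.13 for day 8 vehicle, the ranges overlap. The ratios were 0.455 (0.402 to 0.514), 0.546 (0.490 to 0.609) and 0.164 (0.147 to 0.184), and the averaged log2 change was -1.53 ± 0.39 (SE; edgeR adjusted p = 0.0295).

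The hairpin of miR-3102 in Arhgef17 gave 4 members, an inner and an outer pair. The inner arms and 1 outer arm are shown. The sequences are shown with the seed in capitals.
miR-3102-3p.2-3p: cUCUACUCccugccccagcca
miR-3102-5p.2-5p: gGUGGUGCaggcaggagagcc
miR-3102-3p: gAGCACCCcauuggcuacccaca
The inner arm miR-3102-3p.2-3p, at chr7:100882330-100882350, had 12, 22 and 41 reads in vehicle and 6, 14 and 15 reads in TGFβ libraries, or 110, 94.8 and 98.8 CPM against 33.5, 30.5 and 10.8 CPM, with no overlap (log2 change -1.94 ± 0.56, SE; edgeR adjusted p = 0.0489). The inner arm miR-3102-5p.2-5p, at chr7:100882367-100882387, had 156, 103 and 48.2 CPM against 61.5, 23.9 and 15.1 CPM, with ratios of 0.482 (0.204 to 1.09), 0.288 (0.127 to 0.611) and 0.384 (0.198 to 0.746). The outer arm miR-3102-3p, at chr7:100882307-100882329, had 175, 198 and 224 CPM in vehicle and 101, 211 and 169 CPM in TGFβ libraries, with overlap. Whether the inner and outer arms differ was not tested. The outer miR-3102-5p summed to 13 reads.

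Within single days, members with at least 10 CPM on average in the 2 libraries compared were counted as at least 2-fold higher or lower. At day 2, 4 of 75 were higher and 9 lower, beside 10.4% and 9.33% of all miRNAs. At day 4, 8 of 71 were higher and 16 lower, beside 17.5% and 20.3%, and at day 8, 8 of 68 were higher and 24 lower, beside 18.7% and 23.5%. The median log2 change of members was -0.01, 0.00 and -0.54 at the 3 days, beside 0.00, 0.00 and -0.05 for all miRNAs. At all 3 days 5 of 58 members were at least 1.5-fold lower and 1 was higher, beside 5.21% and 5.52% of all 326 miRNAs measured at all days. Those lower were miR-1224-5p, miR-6538, miR-3102-3p.2-3p, miR-1249-3p and miR-3102-5p.2-5p. With total reads in place of the trimmed mean of M-values (TMM) for scaling, the median log2 change of all miRNAs moved by -0.24, -0.30 and -0.28 at days 2, 4 and 8. Of 116 within-day values of named members, 16 changed sign under it, none of them over 0.292 in size on the log2 scale, among them miR-5099 and miR-1198-5p at day 2, miR-1306-5p and miR-6240 at day 4 and miR-1964-3p at days 4 and 8.

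**Figure D4:**
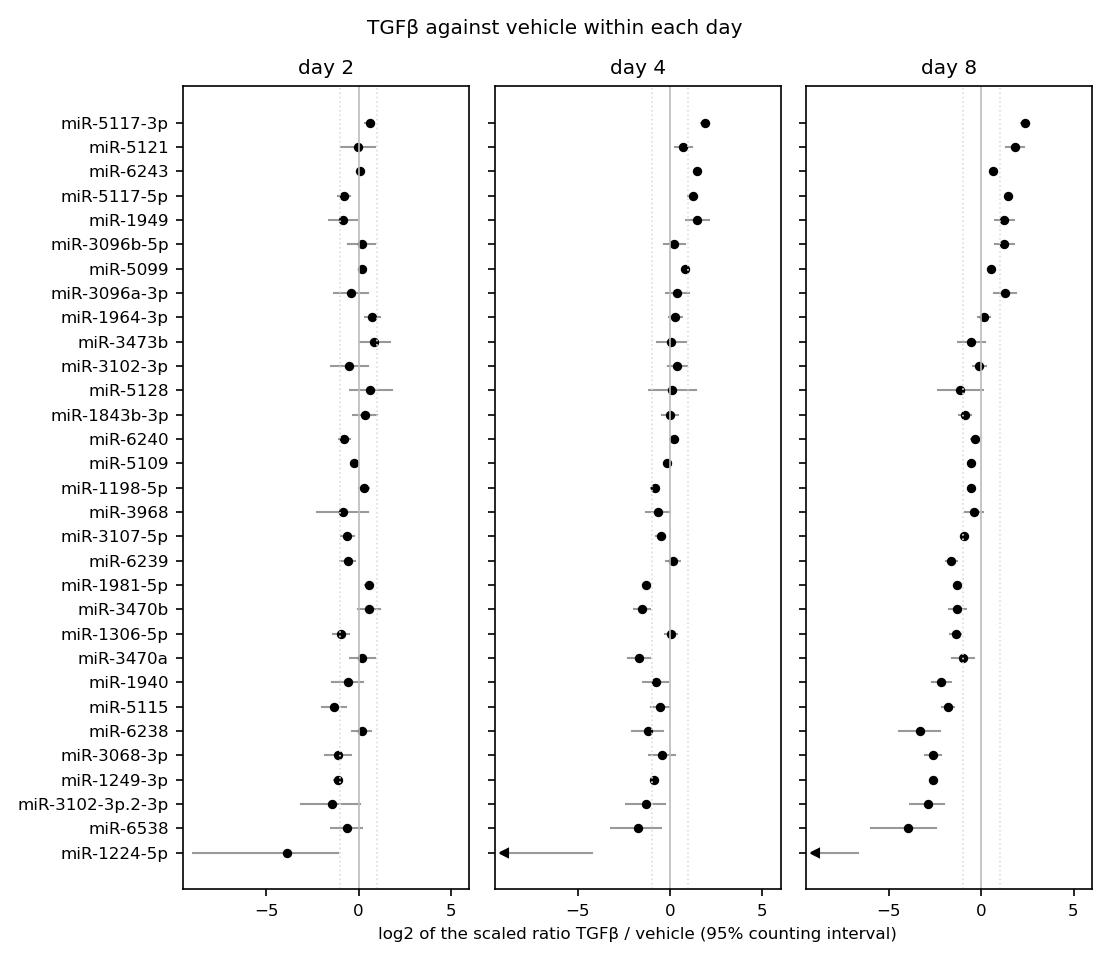
log2 of the scaled ratio of TGFβ to vehicle at days 2, 4 and 8, with 95% counting intervals as lines, for the members in the plot of levels that were measured at all 3 days; triangles at the left edge are ratios of 0, and dotted lines mark 2-fold. miR-5117-3p lies right of 0 in all 3 panels and miR-1224-5p left of it, and the spread of the points is wider at day 8 than at day 2.

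miR-6538 showed ratios of 0.638 (0.354 to 1.14), 0.296 (0.111 to 0.723) and 0.0635 (0.0160 to 0.186) at days 2, 4 and 8, and did not pass the averaged test (log2 change -1.90 ± 0.62, SE; edgeR adjusted p = 0.0653). miR-3068-3p, the snoRNA match, had 432, 147 and 357 CPM in vehicle and 162, 87.0 and 47.6 CPM with TGFβ, with ratios of 0.459 (0.279 to 0.745), 0.739 (0.456 to 1.20) and 0.163 (0.120 to 0.219). miR-5115 had 580, 276 and 441 CPM in vehicle and 190, 152 and 105 CPM with TGFβ, and no TGFβ value reached the vehicle range. The Snord33 match miR-5121 went the other way, with ratios of 0.968 (0.520 to 1.83), 1.65 (1.20 to 2.31) and 3.49 (2.53 to 4.94).

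Among abundant members, miR-1981-5p, the mirtron of Marc2, had 2668, 3981 and 2653 CPM in vehicle and 3209, 1307 and 863 CPM in TGFβ libraries. It was higher with TGFβ at day 2, with a ratio of 1.47 (1.28 to 1.70), and lower at day 4 (0.409, 0.368 to 0.453) and day 8 (0.397, 0.366 to 0.431). The fall with day was in the TGFβ libraries, which shared their range with vehicle at day 2. miR-1198-5p, in an intron of Gripap1 on the X chromosome, had 1711, 2077 and 1391 CPM against 1694, 942 and 778 CPM. miR-3107-5p had 1398, 1202 and 846 CPM against 749, 679 and 368 CPM and was lower with TGFβ at each day. miR-6240 had 2024, 1198 and 800 CPM against 967, 1129 and 510 CPM, with overlap.

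The remaining members with a mean of at least 100 CPM were lower still in abundance. miR-1843b-3p, the scaRNA match, had 294, 306 and 342 CPM in vehicle and 302, 246 and 151 CPM with TGFβ, close to each other until day 8. miR-1940 had 258, 181 and 217 CPM against 140, 84.8 and 39.6 CPM, with TGFβ below vehicle at all 3 days. miR-3096b-5p had 258, 168 and 96.4 CPM against 235, 159 and 187 CPM, and miR-3096a-3p had 202, 147 and 67.5 CPM against 123, 152 and 134 CPM. For both miR-3096 members the interval of the TGFβ ratio excluded 1 at day 8 and not at days 2 and 4, with ratios of 2.37 (1.70 to 3.40) and 2.43 (1.63 to 3.75) at day 8. miR-3968 had 110, 177 and 128 CPM in vehicle and 50.3, 91.4 and 78.5 CPM with TGFβ, and each TGFβ value lay below each vehicle value.

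Some members with few reads also gave large ratios within a day. miR-5113, in an exon of Tnrc6b, which encodes a partner of Argonaute, had 12 reads in vehicle and 2 with TGFβ at day 2 (0.124, 0.0135 to 0.557). miR-3472 had 8 reads in vehicle and 1 with TGFβ at day 4 (0.0786, 0.00177 to 0.586). miR-3074-5p had 5 reads in vehicle and 58 with TGFβ at day 8 (4.24, 1.72 to 13.5), and miR-1934-3p had 11 in vehicle and 5 with TGFβ at that day (0.166, 0.0452 to 0.518). miR-3474 had 1 read in vehicle and 11 with TGFβ at day 4 (6.91, 1.01 to 298). In these the lower count was 5 reads or fewer, and the intervals are wide.

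Grouped by sequence and locus, the members at an intron end and without a match to a small RNA (13 members) took 0.301%, 0.447% and 0.331% of the vehicle reads and 0.344%, 0.161% and 0.109% of the TGFβ reads at days 2, 4 and 8. The members inside another exon (13) took 0.820%, 0.417% and 0.322% in vehicle and 0.323%, 0.211% and 0.0659% with TGFβ. Some of these exons belong to retained-intron transcripts, as for miR-1249-3p and the inner miR-3102 arms, so this group also holds intron sequence. The members matched to a structured small RNA but to under 20 genes (9) took 0.123%, 0.0832% and 0.108% in vehicle and 0.0799%, 0.0800% and 0.0692% with TGFβ. The first group thus kept its share with day in vehicle and lost it under TGFβ, the second lost it in both, and the third varied least of the 3. miR-1981-5p made up most of the first group and miR-1249-3p most of the second. The 27 members with no sequence in RefSeq, the 3 most abundant among them, held 203917 reads.

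The members also differed in composition. Their mature sequences had a median GC content of 58.3% (34.8% to 100%), against 47.8% (31.8% to 81.8%) for the 268 others, at the same median length of 22 bases. miR-5126, at 100%, holds only G and C, and miR-6538 has 94.7%. A seed was shared with another detected miRNA by 5 members (6.58%), against 95 of the others (35.4%). A precursor inside or overlapping a gene on the same strand was as frequent in members (57, 75.0%) as in the others (198, 73.9%). GC content moves with membership, and its part in the courses was not tested.

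The arms of miR-1306 come from an exon of Dgcr8, the gene of Drosha's partner, whose transcript the Drosha complex is known to cut. Their sequences are shown with the seed in capitals, at chr16:18284288-18284310 and chr16:18284248-18284268 on the minus strand.
miR-1306-5p: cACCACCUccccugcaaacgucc
miR-1306-3p: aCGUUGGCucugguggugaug
miR-1306-5p had 1085, 616 and 516 CPM in vehicle and 453, 511 and 161 CPM with TGFβ, whereas miR-1306-3p had 129, 68.9 and 55.4 CPM against 145, 71.8 and 54.8 CPM. The 3p level thus differed little with treatment, with ratios of 1.38 (0.696 to 2.87), 1.30 (0.693 to 2.52) and 1.21 (0.749 to 2.02). The 5p ratios were 0.511 (0.380 to 0.684), 1.03 (0.835 to 1.28) and 0.381 (0.314 to 0.461).

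The number of 5p reads per 3p read does not depend on library size. For miR-1306 it was 8.43 (4.83 to 15.9), 8.94 (5.32 to 16.1) and 9.30 (6.04 to 15) in vehicle libraries and 3.12 (1.98 to 5.05), 7.12 (4.93 to 10.6) and 2.93 (2.25 to 3.86) with TGFβ. For miR-5117 it was 1.03, 1.10 and 1.55 in vehicle and 0.390, 0.682 and 0.826 with TGFβ. In both hairpins the TGFβ library had the lower ratio at each day, with intervals that overlap those of vehicle for miR-1306 at days 2 and 4. They were chosen for this after their values were seen, and are 2 of the 10 hairpins compared. Hairpins with an arm of few reads were left out, such as miR-1249, whose 5p arm summed to 12 reads. miR-1843b had the higher ratio with TGFβ at each day, 0.0926 against 0.0625, 0.115 against 0.113 and 0.248 against 0.141 at days 2, 4 and 8. The other 7 differed in direction between days or had a day without a ratio, miR-1934 for example with 0.400 against 2.20, 6.60 against 1.47 and 9.20 against 3.46.

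**Figure D5:**
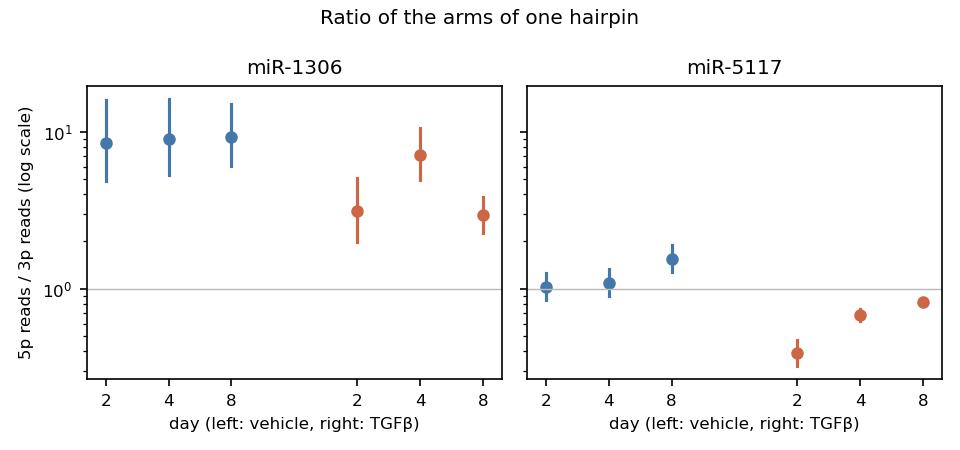
Reads of the 5p arm per read of the 3p arm, on a log scale, by day in vehicle (blue) and TGFβ (red) libraries for miR-1306 (left) and miR-5117 (right); lines are 95% counting intervals, 1 library per point. Each red point lies below the blue point of its day, 2.93 against 9.30 at day 8 for miR-1306.

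Of 64 genes that hold or overlap a matched member, 6 (9.38%) are listed in the mRNA tables at any day. Of 55 protein-coding ones 5 (9.09%) are listed, near the 7.49% of all protein-coding genes. Besides Vwa5b2, the authors' deposited table of day 8 lists Rnf144a, host of miR-6538, at 0.0769, which is 1 to 13 in lowest terms. The authors' deposited table of day 8 also lists Gpc6, opposite miR-6239, at 0.112. In the authors' deposited table of day 2, Boc, a hedgehog co-receptor gene that hosts miR-3081-3p, stands at 3.53 and Dner, opposite miR-5126, at 0.0588. Snord33 stands at 7 in the authors' deposited table of day 4. The ratios of Rnf144a, Dner (1 to 17) and Snord33 (7 to 1) can each rest on few reads. Read as TGFβ over vehicle, the ratios of Rnf144a at day 8 and Snord33 at day 4 lie on the same side of 1 as those of miR-6538 and miR-5121 at those days, and so does that of Gpc6 for miR-6239 at day 8. The authors' deposited ratio of Dner lies on the other side of 1 from that of miR-5126 at day 2, where it had 9 reads in vehicle and 18 with TGFβ, and miR-3081-3p had 0 reads in both day 2 libraries, where Boc is listed. Genes outside these tables are not shown to be unchanged.

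The deposited table of RPM values holds 88 of the 103 members. For 73 of them every RPM value was within 1% of the CPM computed from the counts, and 15 had a larger gap, of 1.77% to 16.6%, miR-3473b, miR-5128, miR-1843a-5p and the miR-3096 members among them. miR-1982.1-3p and miR-1982.2-3p have identical counts in all 6 libraries and are 1 measurement.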

How the data were processed

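The 6 miRNA libraries are 1 per treatment and day. The counts deposited by the authors are unscaled whole reads for each mature miRNA, the deposited RPM values are scaled to each library's reads, and a deposited ratio (fold change) per gene stands for each day of the mRNA data. Per the submitters' processing notes edgeR 3.9 and mm10 were used, with no role stated, and the aligner and counter were not given in the sources used here. Columns were mapped to samples by name. Fold change columns of the RPM table were not used.

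Counts were fitted in edgeR 4.0.16 (limma 3.58.1, R 4.3.3) with terms for day and treatment, once edgeR's expression filter by treatment and TMM scaling (factors 0.878 to 1.13) had been applied, over 283 miRNAs, 52 of them members. The quasi-likelihood test used Benjamini-Hochberg adjustment over all 283 at 0.05. The fit left 2 residual degrees of freedom, which hold the difference of the response between days. It had 12.7 prior degrees of freedom and a biological coefficient of variation of 32.8%. Within days, a log2 change used a prior count of 2 and a mean of at least 10 CPM, and a scaled ratio has an exact conditional binomial 95% interval. A count of 0 was set to 3 reads. Intervals and bounds leave out all but counting error, because each group is 1 library. Reads carried no molecular identifiers, so repeated copies count again and the intervals can be too narrow even for counting error.

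Sequences and loci came from RefSeq (GRCm38.p6), and transcripts, introns and small RNAs from GENCODE vM21; an intron end was matched within 3 bases. Named members passed an edgeR test, had a mean of at least 100 CPM or kept 1 direction by at least 1.5-fold at all 3 days. Members among the 3 largest each way at a day with an interval excluding 1 were named as well. The other arm was given for some of them. miR-3471, miR-5126 and miR-3081-3p lie outside this rule and were named for their sequence or host gene. The members and lists were chosen with earlier results of these data known. Alternatives were DESeq2 1.42.0, other scalings, filters and prior counts, and leaving out each day.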

Additional observations from a re-analysis of the deposited data

Results flagged for a closer look

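For 8 members the counting interval of the TGFβ to vehicle ratio lay above 1 at one day and below 1 at another. The same count was not taken over the other miRNAs, so the pattern is not shown to be particular to members. Whether the days differ was not tested, since each day has 1 library per treatment. miR-5117-5p had ratios of 0.577 at day 2 and 2.33 and 2.76 at days 4 and 8, and miR-1949 had 0.558 at day 2 and 2.74 and 2.39 at days 4 and 8. miR-1981-5p went the other way, with 1.47 at day 2 and 0.409 and 0.397 at days 4 and 8. These 3 lay on opposite sides of 1 under all 3 other scalings as well.

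The other 5 did not do so under every scaling. miR-1198-5p had 1.21 at day 2, 0.565 at day 4 and 0.684 at day 8. miR-6240 had 0.586 at day 2, 1.17 at day 4 and 0.779 at day 8. miR-1981-3p had 7.45 at day 2, from 1 read in vehicle, and 0.386 at day 8. miR-3474 had 6.91 at day 4, from 1 read in vehicle, and 0.467 at day 8. miR-1843a-5p had 0.186 at day 2, from 2 reads with TGFβ, and 1.64 at day 8.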

How the results depend on the processing

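No called value reversed under the alternatives run, but 16 of 116 within-day values of named members changed sign with total counts and 5 of these with scaling on miRNAs below 1000 as well. With total counts the day 2 log2 value of miR-6243 went from 0.10 to -0.19 and that of miR-5099 from 0.20 to -0.10, and the day 4 value of miR-6240 from 0.23 to -0.09. No paired analysis was possible because the labels give no replicate numbers to pair by; the fit itself compares TGFβ with vehicle within days through its term for day. The members called higher with TGFβ over the days, 1 in the report, numbered 6 without day 2 and 0 without day 4, without day 8, with scaling on miRNAs numbered below 1000, and with the filter on the full design, an alternative added after seeing the data. Without day 2, 54 members were among 314 miRNAs tested, of which 66 were called higher. Over all miRNAs, 1 was called higher without day 4, 1 without day 8, 4 with scaling on miRNAs below 1000 and 4 with the full design filter. The members called lower, 3 in the report, numbered 8 with total counts, 5 with no filter, 6 with a mean of at least 10 CPM, 10 without day 2, and 1 without day 4, without day 8, with scaling on miRNAs below 1000 and with the full design filter. miR-1224-5p was called lower in each of these. Over all miRNAs tested, those called lower numbered 33 of 283 with total counts, 19 of 664 with no filter and 29 of 373 with a mean of at least 10 CPM. They numbered 43 of 314 without day 2, 1 of 283 without day 4 and 2 of 248 without day 8. With scaling on miRNAs below 1000 they numbered 3 of 283, and with the full design filter 2 of 309. Members lower at day 8 than at day 2, 12 in the report, numbered 6 with the full design filter and 4 without day 4. Over all miRNAs tested, 12 of 309 and 10 of 283 were lower in these settings, against 28 of 283 in the report. Members lower at day 4 than at day 2, 0 in the report, numbered 1 with DESeq2 size factors, 2 with no filter and 1 with a mean of at least 10 CPM. With total counts the members at least 2-fold higher with TGFβ numbered 2, 5 and 5 at days 2, 4 and 8, and 15 were lower at day 2. With no filter 14 were higher at day 4, 11 were higher at day 8 than at day 2 in vehicle and 12 in TGFβ libraries. With scaling on miRNAs below 1000, 5 were higher with TGFβ at day 8. Shares over all miRNAs were not taken for these 2-fold counts. The shares without the most abundant member (8.63%, 4.67% and 3.11% in vehicle, 6.95%, 4.29% and 2.22% with TGFβ) are in the report. Counting only members with at least 100 reads gave 6.45% in vehicle and 6.47% with TGFβ at day 8. In all, 86 values of comparisons kept their size and 34 moved. Of single miRNAs, 543 values were the same, 53 moved and 30 no longer passed the threshold. The causes were not tested. Under 10 reads were counted for 59 members in the shallowest library and for 35 in the deepest, which limits what can be said of them.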

Other observations

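A small list of miRNAs numbered below 1000 was set beside the members, because their precursors bypass a usual processing step or because they are often listed with fragments of repeats. The mirtron miR-877-5p had 478, 491 and 417 CPM in vehicle libraries of days 2, 4 and 8 and 386, 196 and 100 CPM with TGFβ. Its other arm, miR-877-3p, had 1214, 526 and 284 CPM against 587, 272 and 72.8 CPM. Both arms were lower with TGFβ at each day. miR-320-3p, made without the Drosha cut, had 5639, 9668 and 7799 CPM against 7536, 4489 and 3898 CPM, and miR-484 had 3413, 4058 and 3398 CPM against 1923, 3686 and 2703 CPM. miR-709 had 221, 64.6 and 24.1 CPM against 101, 23.9 and 4.32 CPM, and miR-690 had 2254, 896 and 672 CPM against 1660, 492 and 136 CPM. Both of these were lower at day 8 than at day 2 in each treatment. miR-451a had 0 reads in all 6 libraries. These values carry no test.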
